A study of Homo sapiens with 36 samples.

Results

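The genes described here code for the constitutive proteasome and the proteins that regulate and assemble it. They are the 43 protein-coding genes with the symbols PSMA1 to PSMA7, PSMB1 to PSMB7, PSMC1 to PSMC6, PSMD1 to PSMD14, PSME1 to PSME4, PSMG1 to PSMG4 and POMP, out of 60656 genes listed per library. They were picked by symbol and not by their values, though earlier results of these data were known when the group was chosen. RNA was sequenced from 3 human BRAF-mutant melanoma lines named 1205Lu, WM793 and A375. Each is the derivative with the suffix TR-NR2F1, in which a Tet repressor keeps an added cDNA of the orphan nuclear receptor NR2F1 silent until doxycycline (DOX, 100 ng/mL) is given. After 24 hours with or without DOX, cells received 1 of 4 treatments for 72 hours. The groups are named for them: DMSO as the vehicle, DMSO + DOX, the inhibitor pair BRAFi + MEKi, and the pair with DOX (BRAFi + MEKi + DOX). BRAFi is PLX4720 (1 μM) and MEKi is PD0325901 (35 nM). The 12 groups held 3 replicate libraries each, 36 in all. No group received DOX without the NR2F1 cDNA, so DOX itself and NR2F1 cannot be told apart, and the methods of the study can be read as DOX for all cells in the first 24 hours. 1205Lu and WM793 were grown in a low-serum medium and A375 in DMEM with more serum, so in comparisons with A375 line and medium cannot be told apart either.

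The proteasome degrades proteins that carry ubiquitin chains. Its core particle is a barrel of outer alpha rings and inner beta rings. The beta rings hold the proteolytic sites, with caspase-like activity in PSMB6, trypsin-like activity in PSMB7 and chymotrypsin-like activity in PSMB5. A regulatory particle caps the barrel. Its base, built on a ring of the PSMC ATPases with the scaffold proteins PSMD1 and PSMD2, unfolds substrates, and its lid includes PSMD14, the metalloprotease that takes ubiquitin off a substrate as it is engaged. PSMD4 is a receptor for ubiquitin chains. PSMG1 to PSMG4 and POMP assemble the core particle, PSMD5, PSMD9 and PSMD10 assemble the base, and PSME1 to PSME4 are alternative activators that bind the ends of the barrel. Transcription of these genes is known to rise together when proteasome activity is lost, through the factor NFE2L1. Drugs that block the beta subunits are used against myeloma, and melanoma cells depend on the proteasome as other dividing cells do.

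The deposited values are normalised expression, and they added up to between 27027824 and 34621958 per library. They are taken here as scaled by the authors over the 36 libraries together, and comparisons of level between lines rest on this. The methods of the study also describe a file of normalised values made per cell line, so scaling within each line is possible. NR2F1 checked the labels. In no line or drug arm did libraries with and without DOX overlap, and the closest groups were 1205Lu DMSO + DOX (20699, 9155 and 9270.3) and 1205Lu DMSO (6273, 2182 and 2327). Of 8 genes that the MAPK pathway switches on, 7 were called lower with BRAFi + MEKi in 1205Lu and 8 in WM793 and in A375. Of 12 melanoma markers read, SOX10, CSPG4 and PRAME were high in all lines. The pigment genes TYR and MLANA did not exceed 10 in any library, nor did TYRP1 in any library of 1205Lu. The remaining markers of that list are not given here. Markers of leukocytes summed to at most 91.0 in a library, those of keratinocytes to at most 275.6 and those of endothelial cells to at most 79.8. The library WM793 DMSO replicate 1 was shallow: its commonest low value, an approximate worth of 1 read, was 5.09 against 0.490 to 1.44 in the other libraries.

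All 43 genes were expressed in every line, and the members of a single complex differed widely in level per kb of transcript. Levels between genes are given per kb of the canonical transcript, under DMSO. PSMB4, a structural beta subunit, had the highest level in all lines, with 18424 per kb in 1205Lu, 14160 in WM793 and 21000.1 in A375. The lowest beta subunit was PSMB2, with 845, 998 and 1113 per kb, so that levels within the beta ring spanned 21.8-fold, 14.2-fold and 18.9-fold. In the alpha ring, PSMA7 was highest (12729, 13945 and 8491 per kb) and PSMA5 lowest in 1205Lu and WM793 (898 and 937 per kb), whereas PSMA4 was lowest in A375 (1143 per kb). PSMC3 led the ATPases in 1205Lu and WM793 (3354 and 3185 per kb), PSMC5 led them in A375 (4650 per kb) and PSMC1 was lowest in all lines (1033, 948 and 809 per kb). The ubiquitin receptor PSMD4 stood at 5222, 5063 and 7726 per kb, above 35 or more of the other members. In the lid, PSMD8 was highest (4417, 3458 and 4274 per kb) and PSMD12 lowest (473, 488 and 648 per kb). Among the assembly factors POMP was far above the rest, with 3939, 5089 and 3921 per kb, while PSMG4 was lowest in 1205Lu and WM793 (417 and 376 per kb) and PSMG1 in A375 (530 per kb). Of the activators, PSME2 was highest in 1205Lu and WM793 (4184 and 3082 per kb) and PSME1 in A375 (4362 per kb), and PSME4 was lowest throughout (764, 475 and 586 per kb). These ratios rest on 1 transcript model per gene.

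The first comparison asked what BRAFi + MEKi did to these genes in cells without induced NR2F1. Nearly all calls were of lower levels. Differences are log2 fold changes on log2(value + 1), tested with limma over the 12 libraries of a line, and a gene was called at a Benjamini-Hochberg adjusted p under 0.05 over all genes tested. In WM793, 25 of the 43 genes were called lower and none higher, where 16.9% of all 22074 genes tested were called lower and 20.4% higher. In A375, 21 were called lower and none higher, where 19% of 24370 genes were called lower and 20.5% higher. In 1205Lu, 12 were called lower and 1 higher, where 14.4% of 22144 genes were called lower and 16.5% higher. With the replicate number as a block, which the libraries of 1205Lu bear out, 17 members were called lower and 1 higher in that line, PSMA1, PSMA7, PSMC5, PSMD7 and PSMG3 being added. The share of all genes called with the block is not given, so this rise is not read as particular to the members. The median log2 fold change of the 43 genes was -0.36 in WM793, -0.30 in A375 and -0.22 in 1205Lu, while that of all genes tested was 0.15, 0.06 and 0.11. Leaving out 1 library gave medians of the 43 genes between -0.33 and -0.13 in 1205Lu. The 43 genes are measured at higher levels than most: the lowest of them, PSMG4, exceeded 54.1% of the genes tested in 1205Lu, 52.5% in WM793 and 58.1% in A375.

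Part of the fall depends on scaling. Setting all libraries to the same total moved the median of all genes up by 0.18 in WM793, 0.14 in A375 and 0.06 in 1205Lu on the log2 scale. The calls then became 18 lower and 4 higher in WM793 (PSMB2, PSMD8, PSMD9 and PSMD10 higher), 14 lower and 5 higher in A375 (PSMB4, PSMC2, PSMC5, PSMD4 and PSMD5 higher), and 10 lower and 2 higher in 1205Lu (PSMA6 and PSMC2 higher). Of all genes, that setting called 12.2% lower and 27.3% higher in WM793, 15.4% and 25.6% in A375 and 12.8% and 17.9% in 1205Lu. The median of the 43 genes became -0.16 in WM793, -0.14 in A375 and -0.16 in 1205Lu. The setting moves all genes of a library alike, so the distance between the median of the 43 genes and that of all genes (-0.51 in WM793, -0.36 in A375 and -0.33 in 1205Lu) is nearly fixed under it. A related measure is the summed share of the library total that the 43 genes took, which depends on the other genes of the library too. It was 0.566%, 0.676% and 0.619% in the 1205Lu DMSO libraries against 0.501%, 0.558% and 0.528% with BRAFi + MEKi. In WM793 it was 0.584%, 0.608% and 0.600% against 0.531%, 0.538% and 0.525%. In A375 it was 0.684%, 0.663% and 0.630% against 0.640%, 0.648% and 0.623%. The groups did not overlap in 1205Lu and WM793 and overlapped in A375. In RNA from whole cultures, fewer cells of a kind and less RNA per cell cannot be told apart.

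**Figure D1:**
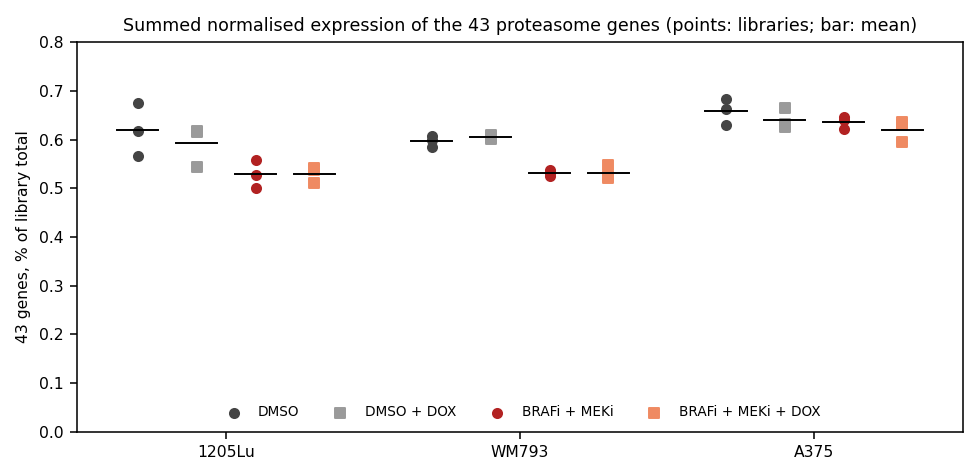
Summed normalised expression of the 43 genes as a percentage of the library total (y axis) in each of the 36 libraries, by line and treatment; points are libraries and bars are means of 3. Every 1205Lu and WM793 library with BRAFi + MEKi alone lies below every DMSO library of its line, and the A375 groups overlap.

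The beta ring, which holds the proteolytic sites, had the most genes called lower of all roles when counted over the lines. With BRAFi + MEKi, 6 of its 7 genes were called lower in WM793 and 5 in both 1205Lu and A375, and the median log2 fold change of the ring was -0.54, -0.53 and -0.50 in that order. PSMB7 (chr9:124353465-124415444 on GRCh38), the trypsin-like subunit, had normalised expression of 4421, 6009.8 and 5336 in the 3 DMSO libraries of 1205Lu and of 2938, 3097 and 2722 with BRAFi + MEKi. In WM793 it went from 5621, 7238 and 6533 to 3411, 3447 and 3648. In A375 it went from 7871, 7553 and 7281 to 4524, 4728 and 4649. No library with inhibitors reached a DMSO library of its line, and the log2 fold changes were -0.84 (SE 0.14, adjusted p = 0.00058), -0.88 (SE 0.10, adjusted p = 1.7e-05) and -0.71 (SE 0.08, adjusted p = 8.3e-06) by limma. PSMB6 (chr17:4796144-4798502), the caspase-like subunit, fell furthest in A375, from 4223, 3914 and 3456 to 2076, 2240.3 and 2273. Its log2 fold change was -0.81 (SE 0.10) there, -0.60 (SE 0.16) in 1205Lu and -0.54 (SE 0.09) in WM793, all called. PSMB5, the chymotrypsin-like subunit and main target of proteasome drugs, was called lower in 1205Lu (-0.53) and WM793 (-0.57) and not in A375, where its log2 fold change was -0.09 with a 95% interval of -0.30 to 0.11. The structural subunit PSMB3 was called lower in all lines, by 0.53, 0.50 and 0.30 in 1205Lu, WM793 and A375, and PSMB1 in WM793 and A375.

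Alpha ring genes were called lower in WM793 and A375. There, 5 and 4 of its 7 genes were called lower, with medians of -0.47 and -0.33. In 1205Lu no alpha gene was called lower, the median was -0.18, and PSMA6 was called higher. It was the 1 member called higher with BRAFi + MEKi in any line. Its values in 1205Lu were 3153, 4014 and 3559 with DMSO and 4195, 5416 and 4603 with inhibitors, which did not overlap. Its log2 fold change there was 0.40 (SE 0.13, adjusted p = 0.032) by limma. That call was lost when only the libraries compared were fitted, when no filter on low values was used, and without DMSO replicates 1 or 3 or BRAFi + MEKi replicates 2 or 3. PSMA1 fell from 3986, 4044 and 3929 to 2501, 2497 and 2481 in A375, a log2 fold change of -0.68 (SE 0.08), and by 0.46 in WM793. In 1205Lu it stood at 6327, 8866 and 8181 with DMSO and 5075, 6482 and 5779 with inhibitors, with overlapping libraries. Its adjusted p by limma, 0.059, dropped to 0.0065 once the replicate number entered the fit as a block. PSMA2 was called lower in WM793 (-0.47) and A375 (-0.54), as was PSMA3, while PSMA4 and PSMA7 were called only in WM793 and PSMA5 only in A375. With the replicate block, PSMA7 was also called in 1205Lu (-0.45, adjusted p = 0.014, limma).

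In the regulatory particle, the deubiquitinase PSMD14 was called lower in every line. PSMD14 (chr2:161308425-161411717) had values of 4686, 5554 and 5239.6 with DMSO and 2372, 3153 and 3046 with BRAFi + MEKi in 1205Lu. In WM793 the values were 4805, 5724 and 4814 with DMSO and 3229, 3109 and 2713 with inhibitors. In A375 they were 3989, 3706 and 3987 with DMSO and 2361, 2295 and 2144 with inhibitors. Every inhibitor library was below every DMSO library, with log2 fold changes of -0.86 (SE 0.14, adjusted p = 0.00048), -0.76 (SE 0.10, adjusted p = 6.4e-05) and -0.78 (SE 0.09, adjusted p = 1.5e-05) by limma. Of the 8 lid genes, 6 were called lower in A375 (median -0.45), 5 in WM793 (median -0.31) and 2 in 1205Lu (median -0.30). PSMD3 and PSMD7 were called lower in WM793 and A375 by at most 0.41, PSMD11 and PSMD12 only in A375, and PSMD6 and PSMD13 only in WM793. Of the 6 ATPases, 4 were called lower in WM793, 2 in 1205Lu and 1 in A375. The 1 shared by all lines was PSMC3 (chr11:47418769-47426473), which fell from 4691, 4658 and 6147 to 2942, 3767 and 3465 in 1205Lu, with log2 fold changes of -0.60, -0.48 and -0.49 in 1205Lu, WM793 and A375. PSMC2 and PSMC6 were called in no line, and the log2 fold change of PSMC2 was above 0 in each of them (0.36, 0.02 and 0.26). The scaffold gene PSMD2 was called lower in 1205Lu (-0.52) and WM793 (-0.29), whereas PSMD1 and the receptor PSMD4 were not called in any line.

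The assembly factors of the core particle were called lower mostly in A375, and those of the base in no line. In A375 all 5 core-particle chaperones were called lower, in WM793 2 and in 1205Lu 1. PSMG1 (chr21:39174769-39183488), which pairs with PSMG2 to build the alpha ring, went from 1385, 1551 and 1536 to 748, 725 and 753 in WM793, a log2 fold change of -1.004 (SE 0.11) that was the largest of any member in that line. In A375 it went from 1003, 855 and 929.9 to 504, 556 and 619.7 (-0.73 (SE 0.13)), and in 1205Lu from 826, 1533 and 1038 to 657, 740.0 and 714 (-0.64 (SE 0.21, adjusted p = 0.034) by limma). POMP, which helps to close the barrel, fell from 7415, 6969 and 6044 to 3539, 3613 and 3551 in WM793 (-0.93 (SE 0.09)) and by 0.31 in A375. PSMG4, 1 of the 2 least abundant members in that line per kb, had the largest log2 fold change in A375, -0.93 (SE 0.30, adjusted p = 0.022) by limma, with values of 435, 377 and 461 against 181, 203 and 295. None of the base chaperones PSMD5, PSMD9 and PSMD10 was called in any line, and the medians of these 3 were above 0 (0.18 in 1205Lu, 0.16 in WM793 and 0.12 in A375). Among the activators, PSME3, which works in the nucleus without ubiquitin, fell in WM793 from 6016, 6201 and 5888 to 3087, 3024 and 3161 (-0.97 (SE 0.09)). PSME2, an interferon-inducible activator, was called lower in 1205Lu, from 3234, 3655 and 3066 to 2275, 2106 and 1754 (-0.70 (SE 0.15)), PSME4 in WM793 (-0.36), and PSME1 in no line.

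**Figure D2:**
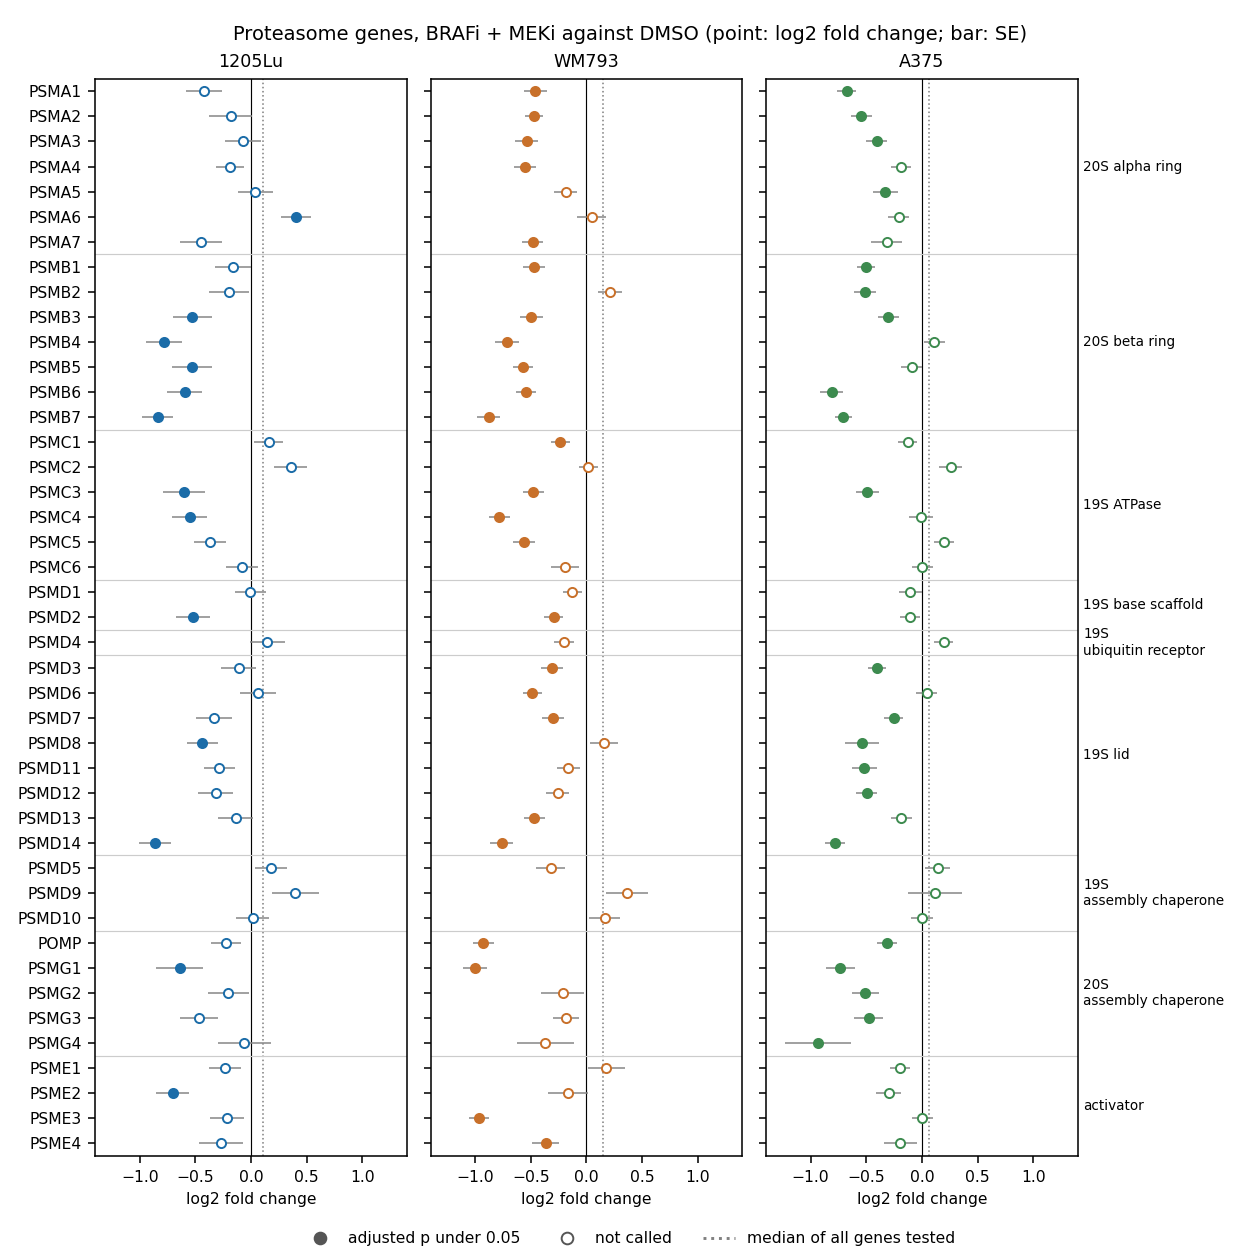
Log2 fold change (x axis) of each of the 43 genes with BRAFi + MEKi against DMSO in 3 lines, grouped by role; points are estimates from 3 libraries a group, bars are standard errors, filled points have an adjusted p under 0.05 and the dotted line is the median of all genes tested. Filled points lie to the left of 0 except PSMA6 in 1205Lu, and PSMD14, PSMB6 and PSMB7 are filled in each line.

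Of the 43 genes, 6 were called lower with BRAFi + MEKi in all 3 lines: PSMB3, PSMB6, PSMB7, PSMC3, PSMD14 and PSMG1. That is 13.95% of the members, where 6.07% of the 19420 genes tested in all lines were called lower in each. A further 12 members were called lower in 2 lines, 16 in 1 line and 9 in none, where the shares of all genes were 10%, 17.4% and 66.5%. The log2 fold change of 27 members was below 0 in all lines, as was that of 22.1% of all genes, and the 27 became 20 with libraries set to the same total and 24 with array weights. With libraries set to the same total, PSMB6, PSMB7, PSMC3 and PSMD14 were still called in all lines. Of the 6, only PSMB6, PSMB7 and PSMD14 were called in all lines with no filter on low values, and likewise without 1205Lu DMSO replicate 3 or without BRAFi + MEKi replicate 1 or 3 of that line. With the replicate block the list grew to 8, by PSMA1 and PSMD7. PSMB7 and PSMD14 were called lower in all 114 fits of the inhibitor comparisons that were run over the lines, with and without DOX, alternatives and left-out libraries included. Their log2 fold changes in those fits lay between -0.997 and -0.488 for PSMB7 and between -0.94 and -0.54 for PSMD14. The 9 members called lower in no line were PSMA6, PSMC2, PSMC6, PSMD1, PSMD4, PSMD5, PSMD9, PSMD10 and PSME1.

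**Figure D3:**
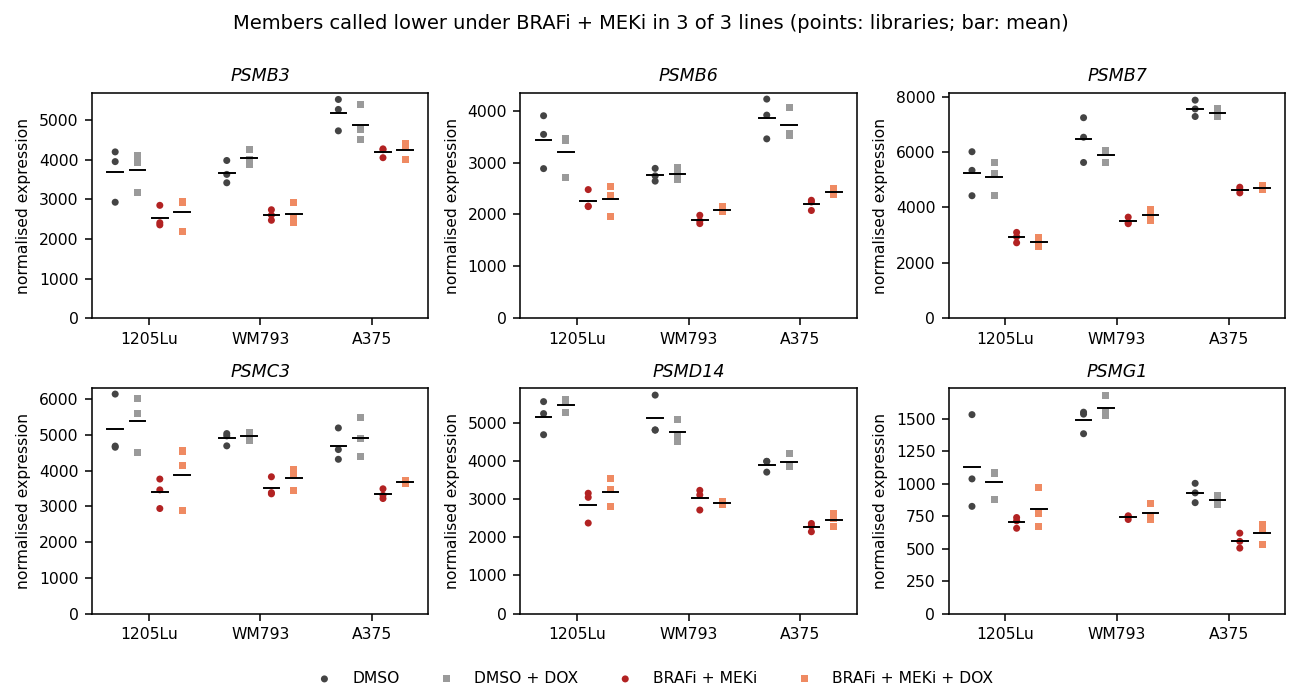
Normalised expression (y axis, from 0) of PSMB3, PSMB6, PSMB7, PSMC3, PSMD14 and PSMG1 in 36 libraries of 3 lines, coloured by treatment; points are libraries and bars are means of 3. With or without DOX, the inhibitor groups of PSMD14 and PSMB7 lie below both groups without inhibitors in each line.

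Promoter sequences are shown, as a description, for the members of this group of 6 that the RefSeq table of promoters held. The table (build GRCh38.p14) matched 37 of the 43 members, among them PSMD14, PSMB3, PSMC3 and PSMG1. It had no entry for PSMB6 and PSMB7. Each line below is the 250 bases before the annotated start, 5′ to 3′ on the gene's own strand, and capitals mark matches on either strand to the CCAAT box (CCAAT), to the core of the antioxidant response element (TGACNNNGC), to an ETS motif (CCGGAAGT) or to a nuclear receptor motif (AGGTCA). The windows are chr2:161308175-161308424 (plus strand), chr17:38752491-38752740 (plus), chr11:47426440-47426689 (minus) and chr21:39183452-39183701 (minus).
PSMD14: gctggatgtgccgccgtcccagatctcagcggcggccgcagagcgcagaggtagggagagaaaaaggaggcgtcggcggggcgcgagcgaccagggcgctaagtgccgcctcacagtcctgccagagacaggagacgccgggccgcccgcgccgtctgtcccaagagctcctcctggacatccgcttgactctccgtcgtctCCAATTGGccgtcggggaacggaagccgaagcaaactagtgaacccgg
PSMB3: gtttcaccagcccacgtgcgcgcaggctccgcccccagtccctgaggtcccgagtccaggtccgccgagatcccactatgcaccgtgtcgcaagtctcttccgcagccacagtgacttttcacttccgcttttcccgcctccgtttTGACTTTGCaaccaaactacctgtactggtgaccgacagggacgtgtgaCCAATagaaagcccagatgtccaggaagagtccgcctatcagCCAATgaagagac
PSMC3: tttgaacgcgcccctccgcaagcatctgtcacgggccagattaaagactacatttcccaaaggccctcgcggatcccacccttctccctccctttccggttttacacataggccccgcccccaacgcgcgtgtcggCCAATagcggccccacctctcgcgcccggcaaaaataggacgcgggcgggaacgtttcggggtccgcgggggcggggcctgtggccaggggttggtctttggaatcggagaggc
PSMG1: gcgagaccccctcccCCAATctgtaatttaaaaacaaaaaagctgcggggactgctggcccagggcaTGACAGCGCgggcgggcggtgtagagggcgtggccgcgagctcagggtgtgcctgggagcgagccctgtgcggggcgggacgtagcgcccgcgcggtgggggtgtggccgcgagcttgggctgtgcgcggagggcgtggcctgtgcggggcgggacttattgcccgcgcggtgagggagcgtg
A CCAAT box, the motif that NF-Y binds, occurs before the start in all 4: the capitals begin 48 bases before it in PSMD14, where a plus-strand and a minus-strand match overlap, 55 and 13 bases before it in PSMB3, 114 in PSMC3 and 235 in PSMG1. The antioxidant response element core, which NFE2L1 and NFE2L2 bind with small MAF proteins, begins 104 bases before the start of PSMB3 and 183 before that of PSMG1. Over the whole window of 250 bases before to 50 after the start, 14 of the 37 matched members (37.8%) hold that core, against 16.1% of 27305 genes in the table. The ETS motif, bound by factors downstream of MAPK signaling among others, is in 9 members (24.3%) against 4.95% of genes, the CCAAT box in 18 (48.6%) against 39.7%, and the nuclear receptor motif, which NR2F1 and its relatives recognise, in 6 (16.2%) against 16.5%. Among members called lower in at least 2 lines, 4 of 15 matched genes held the antioxidant core and 10 held a CCAAT box, and among the other members 10 and 8 of 22 did. These are matches of letters, not measured binding. The genes printed and the split by number of lines were picked by calls in these same data. Whether any of these motifs takes part in the fall was not tested.

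The second comparison gave BRAFi + MEKi to cells in which DOX had switched on NR2F1, against DMSO + DOX. The calls were again nearly all lower, in separate libraries. In WM793, 25 members were called lower and none higher (all genes, 15.1% lower and 16.7% higher). In A375, 17 were called lower and none higher (14.8% lower and 16.2% higher), and in 1205Lu, 7 lower and 1 higher (13.2% lower and 15.1% higher). The medians were -0.39, -0.23 and -0.22, and leaving out 1 library gave -0.29 to -0.13 in 1205Lu. With the replicate block, 1205Lu had 14 members called lower and 2 higher, and the share of all genes called with the block is not given. With libraries set to the same total, the calls were 16 lower and 3 higher in WM793, 10 and 3 in A375, and 4 and 2 in 1205Lu, where 11.1% of all genes were called lower and 22.5% higher, 11.6% and 20.7%, and 10.5% and 17.8%. The medians of the members were then -0.21, -0.10 and -0.11. Of the genes called lower without DOX, 23 of 25 were also called lower with DOX in WM793 (92% of each list), 17 of 21 in A375 (81.0%, and 100% of the list with DOX) and 5 of 12 in 1205Lu (41.7%, and 71.4% of the list with DOX). With the replicate block, 10 of 17 in 1205Lu were shared (58.8%, and 71.4% of the list of 14 with DOX). The matching overlap over all genes called lower is not given, so these shares are not read as particular to the members. POMP, PSMA1, PSMB6, PSMB7 and PSMD14 were called lower in all lines, 11.6% of members against 4.88% of all genes. That list of 5 became 2, PSMB7 and PSMD14, without 1205Lu DMSO + DOX replicate 2 or 3 and with no filter on low values. It became 3 without 1205Lu BRAFi + MEKi + DOX replicate 1 or 3 and with libraries set to the same total, 7 with the replicate block and 9 with array weights.

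The members with the largest changes were in part those of the first comparison. PSMD14 stood at 5265, 5616 and 5549 with DMSO + DOX and at 2803, 3241 and 3531 with BRAFi + MEKi + DOX in 1205Lu, and its log2 fold changes were -0.78, -0.72 and -0.70 in 1205Lu, WM793 and A375. PSMB7 stood at 4429, 5634 and 5231 with DMSO + DOX and 2904, 2725 and 2602 with the inhibitors added in 1205Lu, with -0.89, -0.66 and -0.65. For both genes the libraries of the compared groups did not overlap in any line. PSMB4 and PSMA1 followed in 1205Lu, PSMB4 with 14018, 18268 and 17902 against 9753, 10657 and 10459 (-0.69 (SE 0.16)) and PSMA1 with 7029, 8394 and 8496 against 4788, 5641 and 6031 (-0.54 (SE 0.16)). In WM793 the largest falls were again PSMG1 (1526, 1677 and 1545 against 847, 728 and 758, -1.03 (SE 0.11)) and PSME3 (6628, 6312 and 5905 against 3453, 3762 and 3469.8, -0.82 (SE 0.09)). They were followed there by PSMB4, with 13322, 14256 and 13700.4 against 9424, 7407 and 7762 (-0.75 (SE 0.11)), and by PSMD14, with 4513, 5097 and 4697 against 2878, 2858 and 2939. In A375 PSMD14 had 4197, 3841 and 3897 against 2479, 2273 and 2616, PSMB7 7267, 7373 and 7557 against 4675, 4661 and 4796 and PSMB6 3567, 4059.9 and 3515 against 2409.7, 2503 and 2383, without overlap. In the same line, PSMD11, a lid subunit, was among the largest, with 5777, 6492 and 4956 against 4087, 3891 and 3798 (-0.54 (SE 0.11)). The member called higher in 1205Lu was PSMD9, a chaperone of the base, with 911, 998 and 1450.4 against 1526, 2370.1 and 1981 (0.81 (SE 0.21, adjusted p = 0.011) by limma), a call that was lost without BRAFi + MEKi + DOX replicate 2 and with no filter on low values. PSMG4, with 178, 195 and 267 against 281, 319 and 375.1, was not called there (0.62, adjusted p = 0.071, limma), but was called higher with the replicate block (adjusted p = 0.048) and with libraries set to the same total.

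In fits without the replicate block, the calls of 1205Lu rested more on single libraries than those of the other lines. No library was left out in a fit with the block. Without DOX, 12 members were called lower there, which became 6 without DMSO replicate 2, 7 without BRAFi + MEKi replicate 1 and 5 without BRAFi + MEKi replicate 3. With DOX, 7 became 3 without DMSO + DOX replicate 2 or replicate 3. Leaving out 1 library gave between 21 and 26 members called lower in WM793 and between 16 and 22 in A375 without DOX. DMSO replicate 1 of 1205Lu had a lower share of proteasome mRNA than the other DMSO libraries, and the replicates with number 1 were the lowest of each 1205Lu group.

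Several members responded differently in the lines, by a test of the difference between their log2 fold changes in a fit of all 36 libraries. Between A375 and WM793 the effect of BRAFi + MEKi differed for 9 members, where 22.8% of 26779 genes were called. Between A375 and 1205Lu it differed for 5 (14.7% of genes called), and between WM793 and 1205Lu for 5 (14.5%). In these fits the share of members was near that of all genes in each pair. The counts that involve 1205Lu moved with the setting, where the shares of all genes are not given. For A375 against 1205Lu it was 10 with the replicate block or with array weights, and 3 with no filter on low values or without 1205Lu BRAFi + MEKi replicate 3, A375 DMSO replicate 2 or A375 BRAFi + MEKi replicate 2. For WM793 against 1205Lu it was 9 with the block, 11 with array weights, 2 when only the libraries compared were fitted, and 3 without 1205Lu BRAFi + MEKi replicate 2 or 3 or WM793 DMSO replicate 2. PSMB4 (chr1:151399560-151401937) fell in 1205Lu from 13645, 19414 and 17681 to 10659.6, 10032 and 8641 and in WM793 from 11535, 13986 and 13475 to 7906, 7984 and 7831. In A375 it stood at 19006, 18540.1 and 20288 with DMSO and 20852, 21339 and 20217 with inhibitors, and the groups overlapped. The log2 fold changes were -0.78, -0.71 and 0.11, and the difference from A375 was 0.89 (SE 0.17, adjusted p = 0.00046) against 1205Lu and 0.82 (SE 0.17, adjusted p = 0.00052) against WM793 by limma. PSMC4 and PSMC5, neighbours in the ATPase ring, had a similar pattern. In 1205Lu PSMC4 was called lower (-0.55). PSMC5 was not called there (-0.37, adjusted p = 0.072, limma), but was with the replicate block (adjusted p = 0.033). PSMC4 went from 3505, 3971 and 3484 to 2109, 2059 and 2190.2 in WM793 and from 5108, 4852 and 5315 to 5029, 5216 and 4950.0 in A375, a difference of 0.78 (SE 0.17), and it differed by 0.55 between A375 and 1205Lu. PSMC5 went from 3999, 3935 and 3491 to 2725, 2534 and 2477 in WM793 and from 6173, 6056 and 6339.8 to 7106, 7383 and 6828 in A375, where inhibitor libraries lay above DMSO libraries without a call, and the difference was 0.76 (SE 0.15), with 0.56 between A375 and 1205Lu.

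PSME3, POMP and PSMD6 fell most in WM793. PSME3 stood at 6269, 5933 and 6061 with DMSO and 6081, 6181 and 6043 with inhibitors in A375, and at 4243, 3708 and 4811 with DMSO and 3446, 3651 and 3844 with inhibitors in 1205Lu. The difference between its effects was 0.97 (SE 0.15, adjusted p = 1.8e-05) for A375 minus WM793 by limma and -0.75 for WM793 minus 1205Lu. POMP stood at 4848, 5763 and 5201 with DMSO and 3825, 4953 and 4809 with inhibitors in 1205Lu, and its effect in WM793 differed by -0.70 from 1205Lu. PSMD6 stood at 3041, 2772 and 2749 with DMSO and 2050.3, 2052 and 1998 with inhibitors in WM793 and at 3154, 2864 and 3012 with DMSO and 3115, 3176 and 3009.6 with inhibitors in A375, a difference of 0.53 for A375 minus WM793. PSMB2 and PSMD8 went the other way. PSMD8 fell in A375 from 6879, 6189 and 6395 to 4469, 4639 and 4265 and in 1205Lu from 6932, 7302 and 5882 to 5262, 5186 and 4395, whereas in WM793 it was 4771, 5413 and 5566 with DMSO and 5093, 6617 and 5891 with inhibitors. The difference was -0.70 (SE 0.20) for A375 minus WM793. PSMB2 fell in A375 from 5016, 5294 and 4467 to 3789.5, 3295 and 3263 and was 3849.8, 5069 and 4335 with DMSO and 4791, 5164 and 5317 with inhibitors in WM793, a difference of -0.73 (SE 0.19). Differences were also called for the scaffold gene PSMD2 (0.42 for A375 minus 1205Lu), for PSMA6 (-0.61 for the same pair), for PSMA4 (0.36 for A375 minus WM793) and for PSMC1 (-0.39 for WM793 minus 1205Lu). PSMD2 stood at 14696, 15758 and 13989.5 with DMSO and 9946, 11085 and 9962 with inhibitors in 1205Lu and at 7262, 6360.3 and 6529 with DMSO and 5953, 6655 and 6133 with inhibitors in A375. With libraries set to the same total, PSMB4, PSMC4 and PSMC5 still differed between A375 and both other lines, and PSME3 and POMP between WM793 and both others. PSMA4 was then not called for A375 minus WM793, nor were PSMC1 and PSMD6 for WM793 minus 1205Lu.

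**Figure D4:**
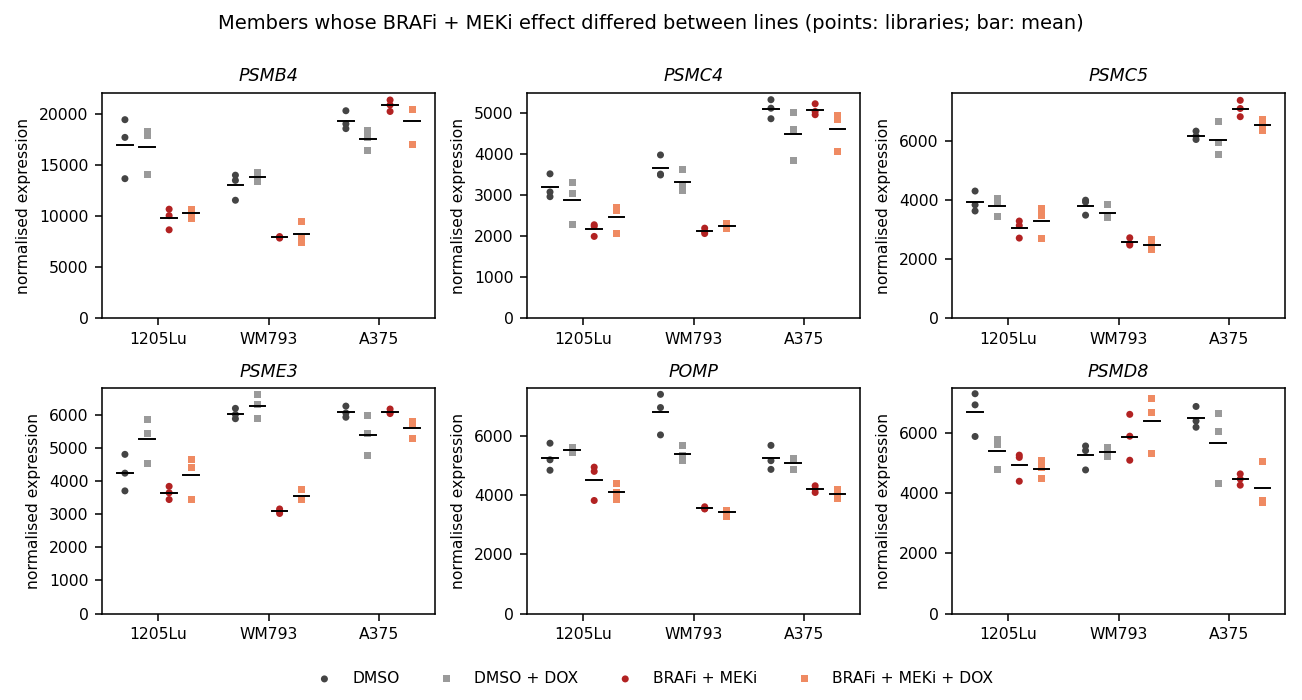
Normalised expression (y axis, from 0) of PSMB4, PSMC4, PSMC5, PSME3, POMP and PSMD8 in 36 libraries of 3 lines, coloured by treatment; points are libraries and bars are means of 3. The PSMB4, PSMC4 and PSMC5 groups with inhibitors lie below the groups without them in WM793 and not in A375, while the mean PSMD8 level with inhibitors is below that without them in A375 and 1205Lu and not in WM793.

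The third comparison asked what DOX, which switches on NR2F1, did under BRAFi + MEKi. No member was called in any line. Calls over all genes came to 0.334% of genes in 1205Lu, 0.204% in WM793 and 1.52% in A375, so fewer than 1 call among 43 genes would match that rate. At an unadjusted p under 0.05 there were 1 member in 1205Lu, 3 in WM793 and 1 in A375. The other settings tried, array weights and the replicate block included, called no member. The medians of the 43 genes were 0.01, 0.01 and 0.02. The 95% interval of the log2 fold change lay within -0.5 and 0.5 for 33 members in 1205Lu, 39 in WM793 and 41 in A375. Over the same libraries MKI67, a marker of cycling cells, rose with DOX in 1205Lu, from 1302, 2851 and 2828 to 6887, 6146 and 6208 (1.55 (SE 0.23)), and in A375, from 393, 318 and 1021 to 1674, 1553 and 3939 (2.11 (SE 0.40)), both called. The MKI67 change with DOX in WM793 is not given here.

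Among members whose libraries did not overlap, the largest differences were uncalled. In 1205Lu PSMA6 had 4195, 5416 and 4603 under BRAFi + MEKi and 3865, 3685 and 3950.1 with DOX added, a log2 fold change of -0.30 (95% interval -0.58 to -0.02, adjusted p = 0.49, limma). In WM793 PSME1 stood at 1934, 2356 and 2445 without DOX and 2587, 3003 and 3152 with it (0.38, 95% interval 0.03 to 0.73). PSMB2 stood at 4791, 5164 and 5317 without DOX and 4255, 4232 and 4292 with it in that line (-0.26, 95% interval -0.49 to -0.03). In A375 PSME1 stood at 3615, 3635 and 3764 without DOX and 4354, 4346 and 3988 with it (0.20, 95% interval 0.01 to 0.40). PSME1, an interferon-inducible activator, had the highest log2 fold change of the 43 genes in both WM793 and A375, and the gene EMC9 overlaps it on the other strand. PSMB6 stood at 2076, 2240.3 and 2273 without DOX and 2409.7, 2503 and 2383 with it in A375 (0.15, 95% interval -0.07 to 0.36).

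Under DMSO alone, DOX likewise gave no call among the 43 genes in any line, where the calls over all genes made up 0.00903% in 1205Lu, 0.512% in WM793 and 0.0492% in A375. At an unadjusted p under 0.05 there were 2 members in 1205Lu and 1 in both WM793 and A375. Of the other settings, only array weights made a call, for 1 member in WM793. POMP, the assembly factor, had the lowest adjusted p of the members in this comparison: in WM793 it had 7415, 6969 and 6044 with DMSO and 5689.7, 5349 and 5167 with DMSO + DOX, a log2 fold change of -0.33 (95% interval -0.53 to -0.13, adjusted p = 0.2, limma). The libraries did not overlap. PSMA3 in WM793 went from 5046, 4682 and 4195 to 4113, 3868 and 4111 (-0.20). In A375 PSME1 went from 4149.8, 4213 and 4266 to 4393, 5361 and 4784 (0.20) and PSMB4 from 19006, 18540.1 and 20288 to 16433, 18370.5 and 17640.5 (-0.14), neither called. PSMD8 in 1205Lu went from 6932, 7302 and 5882 to 4774, 5768 and 5628 (-0.31, adjusted p = 0.7). The medians were -0.02, 0.00 and -0.04 in 1205Lu, WM793 and A375.

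Whether DOX acted differently with and without inhibitors was tested as the difference between both DOX effects, which is the same value as the difference between both inhibitor effects. No member was called in any line, where 1205Lu had 0%, WM793 0% and A375 0.46% of all genes called, none reached an unadjusted p under 0.05, and no other setting made a call. The intervals are wide. They reached a median of 0.47 to either side in 1205Lu, against 0.31 in WM793 and 0.29 in A375, so that 4, 28 and 35 members had an interval within -0.5 and 0.5. The DOX effect under BRAFi + MEKi was not called as different between lines for any member either, where 0.138% of genes were called for WM793 against 1205Lu, 0.179% for A375 against 1205Lu and 0.881% for A375 against WM793. At an unadjusted p under 0.05 there was 1 member in each of these, and array weights called 1 member for WM793 against 1205Lu.

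**Figure D5:**
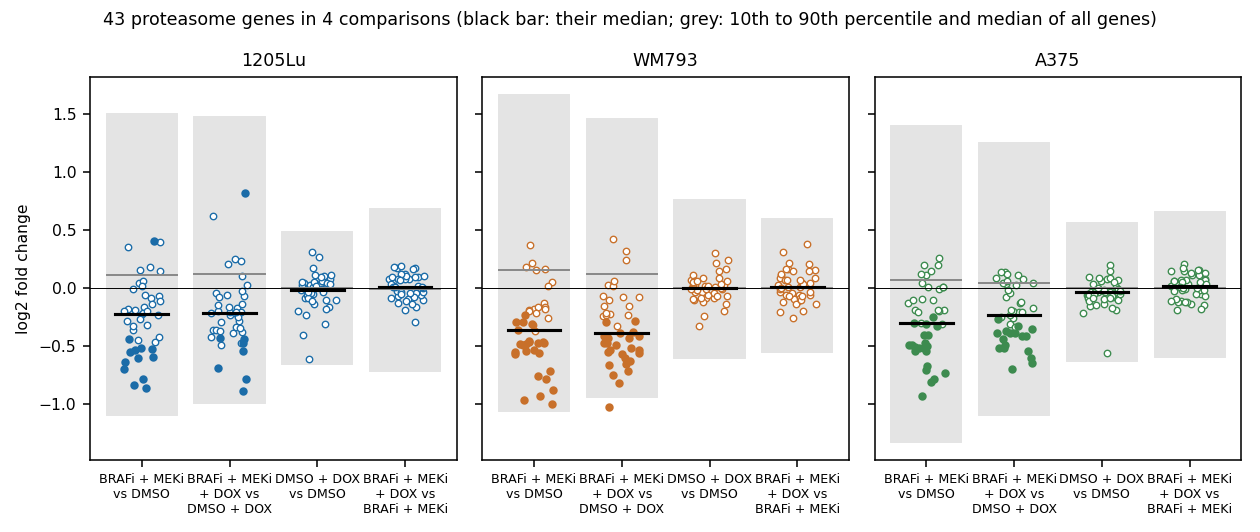
Log2 fold change (y axis) of the 43 genes in 4 comparisons within each line; points are genes, filled where the adjusted p was under 0.05, black bars are their medians, and grey boxes and lines give the 10th to 90th percentile and the median of all genes tested. The points lie mostly below 0 in both inhibitor comparisons and around 0 in both DOX comparisons.

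Before any inhibitor, the lines already differed in these genes. Under DMSO, 29 members (67.4%) differed between A375 and 1205Lu, where 46.8% of genes were called, with 17 higher and 12 lower in A375. Between A375 and WM793 28 (65.1%) differed (47.5% of genes), 14 higher and 14 lower, which became 22 higher and 8 lower with libraries set to the same total. Between WM793 and 1205Lu 16 (37.2%) differed, near the 30.7% of all genes, with 9 higher and 7 lower. These became 3 higher and 2 lower when only the libraries compared were fitted. The largest difference was in the alpha subunit PSMA2, with 3646, 3462 and 3382 in A375, 6175, 9703 and 8144 in 1205Lu and 11130.4, 10976 and 10271 in WM793. A375 was below both, with log2 differences of -1.17 (SE 0.13) and -1.63 (SE 0.13), and WM793 was above 1205Lu by 0.45. The scaffold genes were also low in A375: PSMD1 had 4659, 4442 and 4046 there against 7958, 8403 and 7906 in 1205Lu and 8734, 8744 and 8101 in WM793. PSMD2 was highest in 1205Lu, with 14696, 15758 and 13989.5, followed by 8794, 8987 and 8922 in WM793 and 7262, 6360.3 and 6529 in A375, and each step was called.

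Other members were highest in A375. The chaperone PSMG2 had 1068, 1032 and 1048 in A375 against 408, 586 and 492 in 1205Lu and 403, 593 and 589 in WM793, log2 differences of 1.10 (SE 0.16) and 1.01 (SE 0.16). Its partner PSMG1 was not higher there, with 1003, 855 and 929.9 in A375, 826, 1533 and 1038 in 1205Lu and 1385, 1551 and 1536 in WM793, and was called lower than in WM793 (-0.68). PSME1 had 4149.8, 4213 and 4266 in A375 against 1487, 2149 and 2398 in WM793 (1.09 (SE 0.14)). The ATPases PSMC4 and PSMC5, which did not fall in A375 with inhibitors, were higher there under DMSO, by 0.66 and 0.70 for PSMC5 and by 0.68 and 0.48 for PSMC4 against 1205Lu and WM793. WM793 had the most PSMD5, a chaperone of the base, with 2659.7, 2587 and 2822 against 1845, 1304 and 1346 in 1205Lu (0.86 (SE 0.12)). PSMC2 was also highest in WM793, with 7652, 8438 and 8265 against 5932, 4808 and 6344 in 1205Lu and 4363, 4001 and 4051 in A375, although PMPCB overlaps it and reads could be shared.

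Further called differences in level under DMSO were spread over the roles. The alpha subunit PSMA1 was highest in 1205Lu, with 6327, 8866 and 8181, against 4859, 5677 and 4837 in WM793 (-0.59 for WM793 minus 1205Lu) and 3986, 4044 and 3929 in A375 (-0.95 for A375 minus 1205Lu). The lid subunit PSMD3 had 5118, 4893 and 4795 in A375 against 2858, 3619 and 2992 in 1205Lu (0.65). The ubiquitin receptor PSMD4 had 10178, 10059.7 and 10333 in A375 against 6782, 6971 and 6280.2 in WM793 (0.61). For both, the A375 libraries were the higher ones. PSMG3, a chaperone of the core, was lower in A375, with 1329.7, 1298 and 1488 against 2259.5, 2751 and 2847 in WM793 (-0.93). The activator PSME4 was lower in WM793, with 3908, 3611 and 2806 against 4395, 7505 and 4724 in 1205Lu (-0.66), while the activator PSME3 was higher there, with 6016, 6201 and 5888 against 4243, 3708 and 4811 (0.51).

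Across the 36 libraries, after the mean of each line was removed, most members varied together. Of the 903 pairs, 419 (46.4%) had a Pearson correlation above 0.5 and 166 (18.4%) were below 0, with a median of 0.47. All points share the same libraries and scaling, and the inhibitor effect is part of the variation. No value over pairs of other genes is given, so these correlations are not read as particular to the members. PSMB3, PSMA2, PSMB6, PSMA1, PSMB1 and PSMD14 followed the median of the other members most closely, with r from 0.93 to 0.90. The closest pairs were PSMA1 with PSMD14 (0.95) and PSMB7 with PSMD14 (0.94), and the ATPase pair PSMC4 and PSMC5 reached 0.92. PSMD9 (-0.41) and PSMC2 (-0.27) ran against the median, and PSMD10 (-0.04), PSME1 (0.03), PSMA6 (0.05) and PSMD5 (0.12) had an r near 0.

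Genes that work with the proteasome outside these 43 were read from 5 lists of 39 genes, of which 37 were expressed enough to be tested. With BRAFi + MEKi, 10 were called lower and 3 higher in 1205Lu, 16 and 6 in WM793 and 17 and 5 in A375, where the shares of all genes called were those given above for the same comparison (14.4% lower and 16.5% higher, 16.9% and 20.4%, and 19% and 20.5%). With DOX in both arms the counts were 12 lower and 2 higher, 15 and 9, and 13 and 4 in the same order, where 13.2% and 15.1%, 15.1% and 16.7%, and 14.8% and 16.2% of all genes were called. Among those called lower in all lines, as 6.07% of all genes were, were UCHL5 and USP14, the deubiquitinases bound to the regulatory particle, IPO9, which carries proteasomes into the nucleus, UBQLN4, which delivers ubiquitinated substrates, UBA6, which activates ubiquitin, and MAFF, a small MAF factor. UCHL5 stood at 2244, 2698 and 2812 with DMSO and 1291, 1744 and 1571 with inhibitors in 1205Lu, at 3966, 4108 and 3686 with DMSO and 2410.1, 2132 and 2314 with inhibitors in WM793 and at 4054, 4033 and 4194 with DMSO and 2234, 2231 and 2338 with inhibitors in A375. No libraries overlapped, and the log2 fold changes of -0.76, -0.78 and -0.85 were close to those of PSMD14. USP14 had -0.46, -0.49 and -0.46. MAFF fell by 2.95, 1.66 and 2.76 on the log2 scale. It was the 1 gene of these lists that DOX changed under inhibitors: in WM793 it stood at 650.4, 930.1 and 1206 with BRAFi + MEKi and 2249.6, 2132 and 2743 with DOX added (1.39 (SE 0.22, adjusted p = 0.03) by limma). With libraries set to the same total, UCHL5 and MAFF were still called lower in all lines, whereas USP14, IPO9, UBQLN4 and UBA6 were not. USP14, UBQLN4 and UBA6 were also not called in all lines with no filter on low values. The same held for UBQLN4 when only the libraries compared were fitted. With DOX in both arms, UBA6 was not among the genes called lower in all lines.

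Of the 19420 genes tested in all lines, 1120 were called higher in each line. Among the genes of these lists this held for 1, NFE2L2. It codes for the main factor of the antioxidant response and stood at 9242, 8418 and 7345 with DMSO and 18983, 18996 and 18082 with inhibitors in 1205Lu (1.17 (SE 0.15)). In WM793 the values were 8289, 7186 and 6867 with DMSO and 11262, 10727 and 10367 with inhibitors (0.54 (SE 0.10)), and in A375 3244, 3190.0 and 2778 with DMSO and 5602, 5421 and 5312 with inhibitors (0.83 (SE 0.10)), with no overlap in any line. NFE2L1, which raises proteasome genes when the proteasome is blocked, was called higher in A375 (0.97 (SE 0.12)), with -0.14 in 1205Lu and 0.24 in WM793 uncalled. RPS27A, which codes for ubiquitin fused to a ribosomal protein, was called lower in WM793 (-1.35) and A375 (-0.83). The inducible catalytic subunits, which replace the constitutive ones in the immunoproteasome, were not called lower: PSMB9 was called higher in WM793 (0.77 (SE 0.23)), although its libraries overlapped, and PSMB10 in A375 (0.95 (SE 0.24)), from 812, 799.7 and 809 to 1399, 1574 and 1717.

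Other measurements belong beside these results. The proliferation genes MKI67 and TOP2A moved with the inhibitors as well. MKI67 fell by 4.11 in A375 and 2.69 in 1205Lu, and by 0.48 in WM793, and TOP2A by 3.73 and 2.00, with -0.20 uncalled in WM793. WM793, which had the smallest change in MKI67, had the most proteasome genes called lower. Intervals of the 43 genes reached a median of 0.22 to either side there, against 0.34 in 1205Lu and 0.20 in A375. With libraries set to the same total, the medians of the 43 genes were -0.16 in WM793, -0.14 in A375 and -0.16 in 1205Lu. The part of cell cycling in the result was not tested. The kit does not mark strand, so reads of genes that overlap a member on the other strand, such as RNF31 with PSME2, BECN1 with PSME3, FTSJ3 with PSMC5 and TUBB2B with PSMG4, cannot be told apart from it, and PSMC1 has 13 annotated pseudogenes, PSME2 6 and PSMA6 4.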

How the data were processed

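Bulk RNA-seq libraries of 3 melanoma lines under 4 treatments were compared. Per the labels and methods, the authors made unstranded poly(A) libraries, aligned reads with STAR 2.7.0 to GRCh38, quantified GENCODE 35 genes with RSEM 1.2.28 and normalised with DESeq2 1.28.1. The deposited value is a normalised expression signal, 1 per gene and library, for 60656 genes. It is not a read count, so exact depth is unknown: only 4.13% to 38.2% of values under 20 lay within 0.01 of a whole multiple of the commonest low value.

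Genes were named from GENCODE 44 (60401 of 60656 identifiers matched). Genes whose mean reached 1 in some group were tested on log2(value + 1) with limma 3.58.1 (R 4.3.3, moderated test with trend, two-sided, checked on simulated data), over the 12 libraries of a line or, between lines, all 36. P-values were adjusted by Benjamini-Hochberg over all genes tested and called under 0.05. Standard errors and 95% intervals come from the same fits. The p-values measure the spread between replicate cultures of 1 engineered population per line.

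Members, gene lists and promoter motifs were chosen with earlier results of these data known. Values per library are given for up to 4 called members per comparison and direction with the largest log2 fold change, or, where fewer than 2 were called, up to 2 whose libraries did not overlap, and for the highest and lowest level per role. Other members with such values, among them those called in all lines, were picked after their values were seen. Levels per kb use the canonical GENCODE 44 transcript. Promoters came from a RefSeq table (GRCh38.p14). Some genes of the lists are counted but not reported here by name.

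Libraries with the same replicate number deviated together in 1205Lu (correlation of deviations 0.12 to 0.45, over genes whose mean reached 30) and in the DOX comparisons of WM793 and A375 (0.11 to 0.54), although in 2 of 12 and 3 of 12 pairs a library with another number correlated more closely. A fit with the number as a block was also made. Alternatives were a pseudocount of 0.1, no filter, only the libraries compared, the replicate block, libraries set to the same total, array weights and leaving out each library.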

Additional observations from a re-analysis of the deposited data

Results flagged for a closer look

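These results were marked because the effect of BRAFi + MEKi on a member differed between 2 lines by a test of the difference itself (limma over 36 libraries, adjusted p under 0.05). Values are differences between log2 fold changes. The line and its culture medium cannot be told apart in the differences that involve A375. Groups of 3 were not tested for single outlying libraries.

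Between A375 and WM793 the difference, A375 minus WM793, was 0.97 for PSME3, 0.82 for PSMB4, 0.78 for PSMC4, 0.76 for PSMC5, 0.61 for POMP, 0.53 for PSMD6 and 0.36 for PSMA4, whose log2 fold changes were lower in WM793. It was -0.73 for PSMB2 and -0.70 for PSMD8, which were lower with inhibitors in A375 and not in WM793.

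Between A375 and 1205Lu the difference, A375 minus 1205Lu, was 0.89 for PSMB4, 0.56 for PSMC5, 0.55 for PSMC4 and 0.42 for PSMD2, and -0.61 for PSMA6, the member called higher in 1205Lu. Between WM793 and 1205Lu the difference, WM793 minus 1205Lu, was 0.59 for PSMD8, -0.75 for PSME3, -0.70 for POMP, -0.55 for PSMD6 and -0.39 for PSMC1. With libraries set to the same total, the calls of PSMA4 for A375 minus WM793 and of PSMD6 and PSMC1 for WM793 minus 1205Lu were lost. For WM793 minus 1205Lu, no filter on low values gave 0 members called higher and 4 lower. Fitting only the libraries compared gave 0 and 2 for that pair. The call of PSMD8 for WM793 minus 1205Lu was thus lost in both settings. For A375 minus 1205Lu, no filter gave 2 called higher and 1 lower.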

How the results depend on the processing

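Counts below are members called, out of 43, and log2 fold changes are medians of the 43. Shares of all genes called were given above for the main fits. For libraries set to the same total they were given for the inhibitor comparisons within lines. No such shares stand beside the counts of the other settings. A pseudocount of 0.1 moved no count or median by more than the limits used here (1.5 times for a count, 1 SD between replicates for a median). The median of the inhibitor comparisons stayed below 0 within each line under every alternative. With libraries set to the same total, the medians without DOX became -0.16 in WM793 and -0.14 in A375, and those with DOX -0.21 and -0.10, and the counts called higher became 2 in 1205Lu, 4 in WM793 and 5 in A375 without DOX, and 2, 3 and 3 with DOX. The counts called lower with DOX became 4, 16 and 10 in that order. The same setting turned the median difference of the inhibitor effect to 0.048 for WM793 minus 1205Lu and 0.062 for A375 minus 1205Lu, and raised the median level difference under DMSO to 0.27 for A375 minus 1205Lu and 0.24 for A375 minus WM793.

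In 1205Lu without the filter on low values, 6 members were called lower and 0 higher without DOX, and 3 and 0 with DOX. Fitting only the libraries compared called 0 higher in 1205Lu and 2 higher in A375 without DOX, 2 members for the inhibitor effect of WM793 minus 1205Lu, and 5 for the level of WM793 minus 1205Lu. With the replicate block, 14 members were called lower and 2 higher in 1205Lu with DOX, 1 higher in WM793 with DOX, 1 higher in A375 without DOX, and the inhibitor effect differed for 9 members for WM793 minus 1205Lu and 10 for A375 minus 1205Lu. The block changed no other count past those limits. It called 17 lower in 1205Lu without DOX, 26 and 28 lower in WM793 without and with DOX, 22 and 19 in A375, and 13 members for the inhibitor effect of A375 minus WM793. Array weights called 17 lower and 3 higher in 1205Lu with DOX, 1 higher without and 3 higher with DOX in WM793, 3 higher in A375 without DOX with a median of -0.29 with DOX, 11 and 10 members for the inhibitor effect of WM793 and of A375 minus 1205Lu, 1 member for DMSO + DOX against DMSO in WM793, and 1 for the DOX effect of WM793 minus 1205Lu. Without the filter, 3 members differed for A375 minus 1205Lu.

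Leaving out each library in turn gave 5 to 14 members called lower and 0 to 1 higher in 1205Lu without DOX, and 3 to 9 lower and 0 to 2 higher with DOX. It gave 0 to 1 called higher in WM793 and in A375 without DOX and 0 to 2 in WM793 with DOX. The inhibitor effect differed for 3 to 7 members for WM793 minus 1205Lu and 3 to 6 for A375 minus 1205Lu. Medians ranged from -0.33 to -0.13 in 1205Lu, from -0.40 to -0.35 in WM793 and from -0.30 to -0.25 in A375 without DOX. In 1205Lu with DOX they ranged from -0.29 to -0.13. For DOX under inhibitors in WM793 they ranged from -0.0299 to 0.0301. For the difference between both DOX effects in 1205Lu they ranged from -0.090 to 0.115. Between lines they ranged from -0.122 to 0.044 for the inhibitor effect of A375 minus 1205Lu, from -0.112 to 0.071 and from -0.0640 to 0.1003 for the DOX effect of WM793 and of A375 minus 1205Lu, and from -0.045 to 0.103 and from 0.051 to 0.239 for the level of WM793 and of A375 minus 1205Lu. The cause of these shifts was not tested.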
